A study of Mus musculus with 6 samples.

Results

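The 10 genes described here are Rgs2, Rgs3, Rgs4, Rgs5, Rgs10, Rgs12, Rgs14, Rgs16, Rgs17 and Rgs19, which encode regulators of G protein signalling. They are 10 of the 23420 gene symbols in the deposited tables, and they were chosen from measured values of the same comparison, so their differences between the groups are given as a description and without a test. Lacrimal gland epithelium had been laser-captured from E14.5 mouse embryos of mixed background, and RNA was sequenced from 3 control and 3 Pea3 TKO samples. The control genotype was Le-Cre. Pea3 TKO samples were Pea3-/- with floxed alleles of the other 2 genes, given as Ermfl/fl and Er81fl/fl, and likewise carried Le-cre, so the Cre transgene was common to both groups. The tables list Pea3 as Etv4, Erm as Etv5 and Er81 as Etv1, which encode ETS transcription factors that act downstream of FGF signalling. The Pea3-/- genotype was that of every cell of the mutant embryo, whereas Erm and Er81 were deleted only where Le-Cre was active, in the epithelium of the ocular surface and the gland. The sources do not state whether the 3 replicates of a group came from separate embryos, so p-values measure the spread between these samples, which may be technical in part. Mutant replicate 3 did not come from the same embryo as mutant replicates 1 and 2. Its summed Y-linked RNA was 139 CPM, against 0.445 and 0.210 CPM.

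G protein coupled receptors switch on G proteins by loading the alpha subunit with GTP. RGS proteins bind the active alpha subunit and speed the hydrolysis of that GTP, which shortens the signal. Most members of the R4 subfamily (Rgs2, Rgs3, Rgs4, Rgs5 and Rgs16 here) are small, with little more than the RGS domain. Rgs3 is larger, with a longest annotated coding sequence of 2898 bases, against 543 to 633 bases for the others. Rgs12, Rgs14 and Rgs10 form the R12 subfamily, in which Rgs12 and Rgs14 also bind Ras family proteins, and Rgs17 and Rgs19 belong to the RZ subfamily. RGS4, RGS5 and RGS16 are known to be short-lived proteins. Their second residue is a cysteine, which becomes exposed and oxidised, and the arginine N-degron pathway then removes the protein. Rgs5 is widely used as a pericyte marker.

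The first 30 coding bases of 4 members are shown because they carry this feature, with codon 2 in capitals. They are from GENCODE release M21 on GRCm38, 5′ to 3′.
Rgs4, chr1:169747494-169747523, minus strand: atgTGCaaaggacttgcaggtctgccggct
Rgs5, chr1:169655578-169655607, plus strand: atgTGTaagggactggcagctctgccgcac
Rgs16, chr1:153740469-153740498, plus strand: atgTGCcgcaccctagccaccttccccaac
Rgs2, chr1:144004089-144004118, minus strand: atgCAAagtgccatgttcctggctgtccag
TGC and TGT both encode cysteine. A cysteine codon stood at position 2 in 2 of 2 annotated coding transcripts of Rgs4, 2 of 2 of Rgs5 and 1 of 1 of Rgs16, and in 1 of 3 of Rgs10, a short one. None of the annotated coding transcripts of the other 6 members had one. Rgs4 and Rgs5 shared 23 of these 30 bases, position by position, and Rgs4 and Rgs16 shared 13. Only RNA was measured, so nothing here bears on the level of the proteins.

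Each sample held between 14194775 and 17860140 counts, and levels are given as CPM, the count scaled to a common normalized library size. Etv1, Etv4 and Etv5 were lower in the mutant by 1.74 ± 0.20, 2.95 ± 0.31 and 2.93 ± 0.24 on the log2 scale (fitted difference ± SE, 3 samples a group), and their reads did not reach 0. Epithelial RNA was abundant in every sample, and Epcam, an epithelial adhesion gene, stood at 1408 ± 88.2 CPM in controls and 1256 ± 73.4 CPM in Pea3 TKO (mean ± SD, n = 3). Of 6 epithelial markers, 5 were higher in the mutant at an adjusted p under 0.05 (test given below), against 13.6% of all tested genes. The summed level of the 6 was 2747 to 3489 CPM in controls and 5037 to 5897 CPM in Pea3 TKO. Of the mutant samples, replicates 1 and 2 had almost no Y-linked RNA and replicate 3 had it at the level of the 3 controls, so embryonic sex was not balanced between the groups. Replicates 1 and 2 also held the most mesenchymal RNA, with a summed level of 478 and 660 CPM over 10 marker genes. Replicate 3 stood at 77.0 CPM and the controls at 134 to 234 CPM. Of these sums Foxc2, which was lower in the mutant, held 61.1 to 81.4 CPM in Pea3 TKO and 102 to 132 CPM in controls. The part of sex and of mesenchymal RNA in the differences described was not tested, and the values in replicate 3 are given beside them. In bulk RNA, a lower level cannot tell fewer cells of a type from less RNA per cell.

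Rgs4 was the member that differed most. It had 0, 0 and 0 counts in the 3 controls and 170, 454 and 293 counts in the 3 Pea3 TKO samples. In CPM the mutant samples stood at 10.8, 31.7 and 17.2. All 3 mutant samples were above all 3 controls. The mutant samples also differed among themselves, with a mean of 19.9 ± 10.7 CPM (SD, n = 3). With 3 counts as the limit that a count of 0 allows in each control library, the mean was at least 102-fold higher in Pea3 TKO, and the lowest mutant sample was at least 55.3-fold higher than that limit. Intervals and limits of this kind cover counting error only. Among the 24 tested genes with 0 counts in all 3 controls, Rgs4 had the highest mean level in the mutant.

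Rgs5, its close relative and neighbour, was detected at a trace level in the controls. Its counts were 5, 1 and 3 in controls and 82, 96 and 128 in Pea3 TKO, or 0.282, 0.0623 and 0.195 CPM against 5.21, 6.71 and 7.52 CPM. The groups were far apart and the mutant samples were closer to each other than for Rgs4. The fitted log2 fold change was 5.10 ± 0.66 (SE). Rgs4 was lowest in mutant replicate 1 and highest in replicate 2, while Rgs5 was lowest in replicate 1 and highest in replicate 3.

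Rgs16, which also has a cysteine codon at position 2, had low counts in every sample. It stood at 0.507, 1.31 and 0.325 CPM in controls and 4.06, 1.82 and 0.822 CPM in Pea3 TKO. The groups overlapped, since mutant replicate 3 lay below control replicate 2. The log2 fold change of 1.64 ± 0.85 rested on mutant replicates 1 and 2, and it was 0.88 without replicate 1 and 0.21 when replicate 3 alone was set against the controls. Without control replicate 2 it was 2.39.

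**Figure D1:**
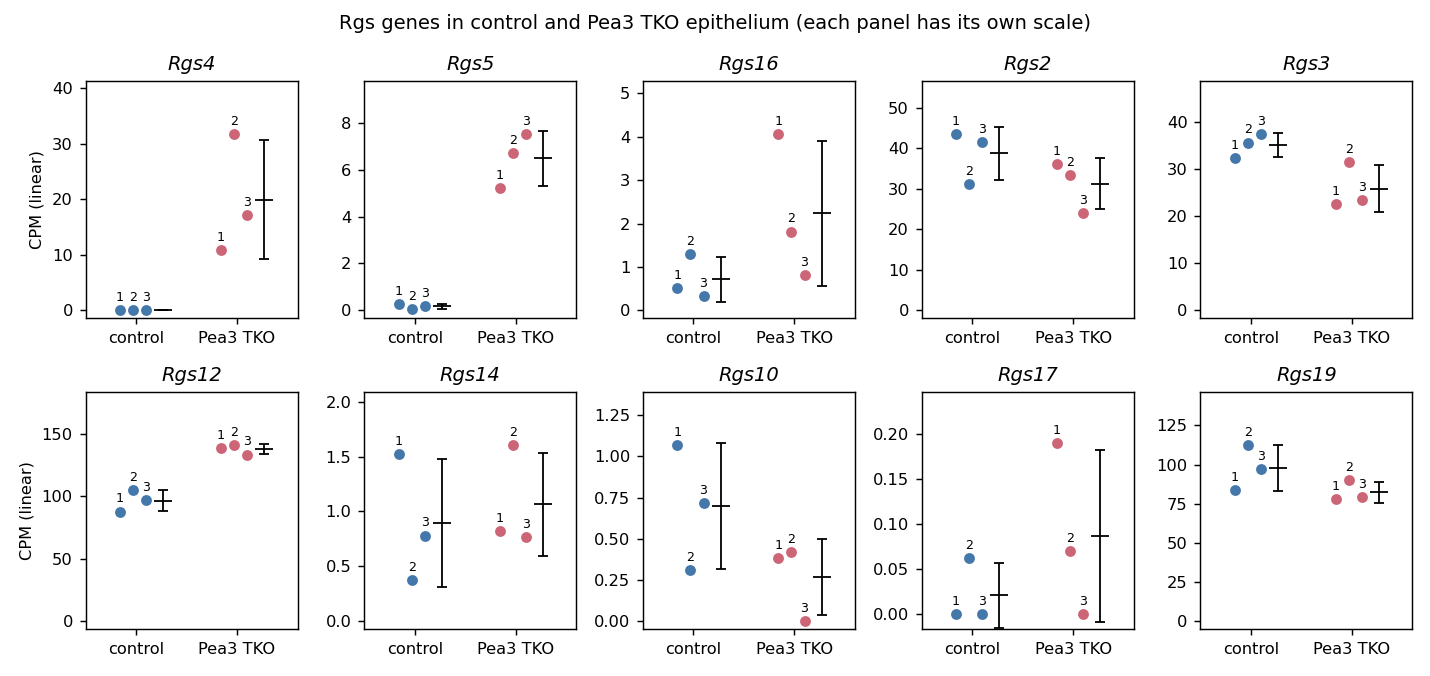
Level of each of the 10 Rgs genes in CPM on linear axes that differ between panels, by group. Circles are single samples with their replicate number, and the black mark with its bar is the mean ± SD (n = 3). Rgs4 is at 0 in all 3 controls and between 10.8 and 31.7 CPM in Pea3 TKO, and Rgs12 and Rgs5 also have no overlap between the groups in the same direction.

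The remaining R4 members, Rgs2 and Rgs3, were expressed in both groups. Rgs2, which acts best on Gq alpha subunits, stood at 43.5, 31.3 and 41.5 CPM in controls and 36.1, 33.4 and 24.1 CPM in Pea3 TKO. The groups overlapped and the log2 fold change was -0.31 ± 0.21. Rgs3 stood at 32.4, 35.7 and 37.5 CPM in controls and 22.5, 31.6 and 23.6 CPM in Pea3 TKO. Every mutant sample was below every control, although replicate 2 missed the lowest control by little, and the log2 fold change was -0.44 ± 0.19. Of the 50-base stretches in annotated Rgs3 transcripts, 11.4% also occur in Gm5763 on the same strand, so part of the Rgs3 reads may not have been assignable to 1 gene.

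Rgs12, a scaffold for Ras and MAP kinase proteins, has the longest annotated coding sequence of the members (4353 bases). It stood at 87.9, 105.0 and 96.8 CPM in controls and 138.5, 141.5 and 133.6 CPM in Pea3 TKO. The groups did not overlap, the mutant samples were tight, and the log2 fold change was 0.51 ± 0.12, a 1.43-fold higher mean. In mutant replicate 3 alone the log2 fold change was 0.48. An antisense gene, Gm43791, overlaps 5.50% of the exonic length of Rgs12, and Gm28513 overlaps 10.1% of that of Rgs16. The sources do not state whether reads were counted by strand, so reads from these partners could not be told apart.

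Rgs14, which binds both active and inactive alpha subunits, stood at 1.52, 0.374 and 0.780 CPM in controls and 0.826, 1.61 and 0.764 CPM in Pea3 TKO. The groups overlapped throughout, and the log2 fold change was 0.25 ± 0.79. It was 0.87 without control replicate 1, -0.12 without control replicate 2 and -0.16 without mutant replicate 2. Rgs10 fell below the filter on low counts, with 19, 5 and 11 counts in controls and 6, 6 and 0 in Pea3 TKO. It is known from microglia and other immune cells, and the summed immune marker level was 29.9, 2.43 and 19.8 CPM in controls and 29.8, 5.52 and 2.35 CPM in Pea3 TKO. Control replicate 2 was lowest among the controls for both Rgs10 and these markers. Mutant replicate 3 was lowest of all for both, whereas mutant replicate 1 had the immune markers at the level of the highest control and Rgs10 at 0.381 CPM, under mutant replicate 2 at 0.420 CPM. The part of immune RNA in Rgs10 was not tested.

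In the RZ subfamily, Rgs19 was abundant and Rgs17 was barely detected. Rgs19, also called GAIP and known as a regulator of Gi alpha subunits, stood at 83.8, 112.7 and 97.2 CPM in controls and 78.1, 90.1 and 79.1 CPM in Pea3 TKO. The groups overlapped, and the log2 fold change was -0.25 ± 0.14. Rgs17 had 0, 1 and 0 counts in controls and 3, 1 and 0 in Pea3 TKO, so no direction could be read.

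**Figure D2:**
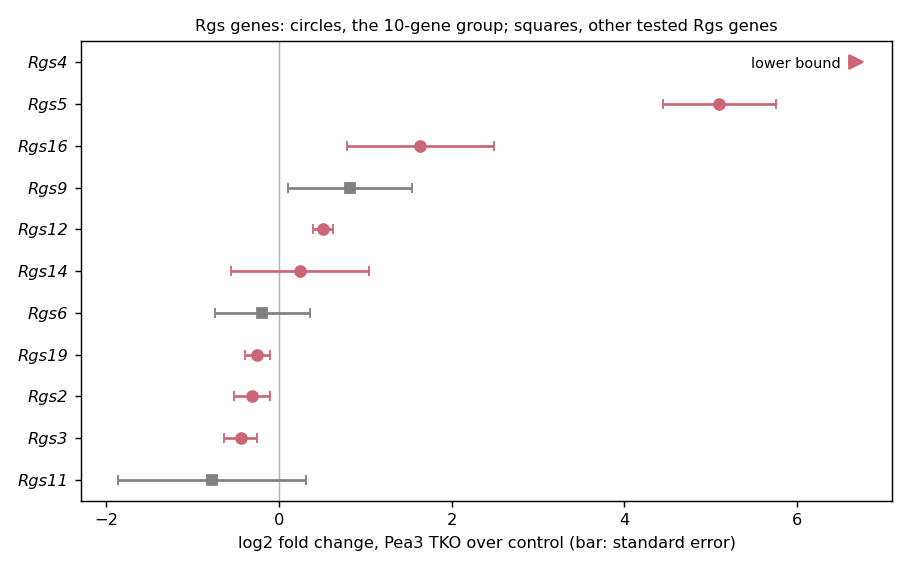
Log2 fold change of Pea3 TKO over control for each tested Rgs gene, with its standard error. Circles are 8 of the 10 members and squares are Rgs6, Rgs9 and Rgs11, and the arrowhead of Rgs4 is a lower bound from the limit of 3 counts. Rgs4 and Rgs5 stand apart on the right, and the others lie between -0.77 (Rgs11) and 1.64 (Rgs16).

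Across the whole table, 13087 genes passed the filter on low counts, and 25.0% of them differed between the groups at an adjusted p under 0.05 (edgeR quasi-likelihood test, Benjamini-Hochberg adjustment over all tested genes). Of the tested genes, 13.6% were higher and 11.3% lower in Pea3 TKO, and for 43.9% the 3 mutant and 3 control samples did not overlap. Of the 10 members, 8 were tested, 3 (Rgs4, Rgs5 and Rgs12) were past that threshold, all of them higher, and 4 had no overlap, of which Rgs3 was lower. The members were selected on this contrast, so nothing is read from these counts. A member had to be detected in at least 1 group to be tested, and Rgs4 passed through its mutant samples alone. The median log2 fold change was 0.38 over the 8 tested members, also with Rgs4 set at its lower bound, and 0.01 over all tested genes.

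Counts depend on the length of a gene, and the following are CPM per kilobase of annotated exon (mean ± SD, n = 3). The length joins the exons of all annotated transcripts, 10801 bases for Rgs3 and 3098 bases for Rgs4. Which transcripts were present was not measured, so the order holds for this length only. In controls the order was led by Rgs19 at 43.9 ± 6.50, followed by Rgs12 at 11.4 ± 1.01 and Rgs2 at 10.7 ± 1.81, whose samples overlapped, and by Rgs3 at 3.26 ± 0.24. Rgs10, Rgs16 and Rgs14 lay between 0.21 and 0.41 and overlapped in turn with each other, but not with Rgs3 above or Rgs5 beneath them. Rgs5 came next at 0.040 ± 0.024, and Rgs17 and Rgs4 were last. In Pea3 TKO the order began with Rgs19 at 37.0 ± 3.00, Rgs12 at 16.2 ± 0.47 and Rgs2 at 8.61 ± 1.73. Rgs4 ranked number 4 at 6.43 ± 3.46, where its samples overlapped with those of Rgs2, and it lay above Rgs3 at 2.40 ± 0.46 in every sample. Without division by length, the Pea3 TKO mean of Rgs3 was the higher, at 25.9 CPM against 19.9 CPM for Rgs4. Rgs5 followed at 1.43 ± 0.26, overlapping with Rgs16 at 0.96 ± 0.71. Rgs4 thus supplied 4.96%, 12.4% and 8.20% of the summed per-kilobase level of the 10 members in the 3 mutant samples, and 0% in each control. Rgs19 supplied 58.5% to 66.8% of that sum in the controls and 49.1% to 52.3% in the mutant samples.

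Rgs4 and Rgs5 lie next to each other. In GENCODE M21 on GRCm38, Rgs5 spans chr1:169655501-169695813 on the plus strand and Rgs4 spans chr1:169741477-169747642 on the minus strand. They are transcribed toward each other, with 45663 bases between them. Rgs2 and Rgs16 are also on chromosome 1, at chr1:143999338-144004161 and chr1:153740349-153745468. Within 500 kb on each side of Rgs4, the tables held 7 other genes, of which 6 were tested. Uap1, which makes UDP-N-acetylglucosamine, was higher in Pea3 TKO (71.0 ± 4.96 CPM in controls, 187 ± 40.2 CPM in Pea3 TKO, log2 fold change 1.40 ± 0.16, adjusted p = 4.8e-04). None of the other 5 passed the threshold, and their log2 fold changes ran from -0.49 ± 0.22 for Hsd17b7, a sterol enzyme, to 1.78 ± 1.13 for the collagen receptor Ddr2. Nuf2, a kinetochore gene on the far side of Rgs5, had a log2 fold change of -0.23 ± 0.18. Of the 50-base stretches of Rgs4 transcripts, 0.29% occurred in any other gene, and of those of Rgs5, 0%.

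**Figure D3:**
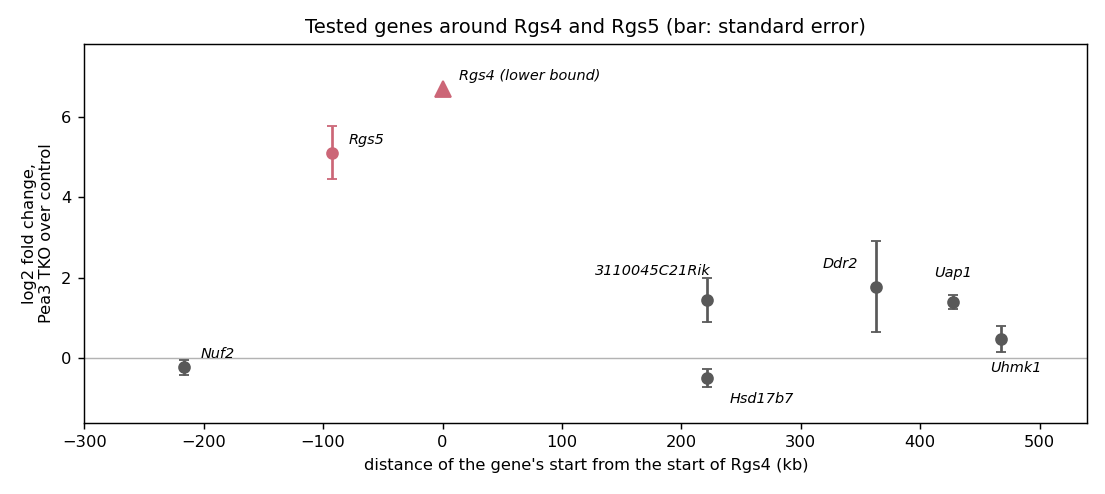
Log2 fold change of Pea3 TKO over control, with its standard error, for each tested gene within 500 kb of Rgs4, against the distance between gene starts in kb. Rgs5 is at 5.10 and Rgs4 is drawn at its lower bound, while the other 6 genes lie between -0.49 and 1.78.

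The 250 bases before the start of both neighbours are shown because the 2 genes differ in the same direction. They are RefSeq sequences on GRCm38.p6, read 5′ to 3′ in the direction of the gene. Capitals mark AGGAAG, the classical PEA3 motif, or its reverse complement CTTCCT.
Rgs4, chr1:169747643-169747892, minus strand: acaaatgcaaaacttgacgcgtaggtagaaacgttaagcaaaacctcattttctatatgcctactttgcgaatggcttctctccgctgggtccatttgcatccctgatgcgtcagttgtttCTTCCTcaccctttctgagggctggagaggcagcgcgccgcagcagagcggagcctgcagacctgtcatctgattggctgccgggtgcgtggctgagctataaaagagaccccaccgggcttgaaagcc
Rgs5, chr1:169655251-169655500, plus strand: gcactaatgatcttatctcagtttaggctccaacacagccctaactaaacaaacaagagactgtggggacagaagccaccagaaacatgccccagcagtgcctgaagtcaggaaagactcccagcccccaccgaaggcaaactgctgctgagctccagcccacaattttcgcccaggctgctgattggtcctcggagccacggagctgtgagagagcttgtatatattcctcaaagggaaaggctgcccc
AGGAAG was searched on both strands and was present in 29.5% of 32851 windows of this length before annotated starts. Rgs4 had 1 match and Rgs5 had none. RefSeq windows were found for 9 of the 10 members (13 windows, with several for genes of several starts), and 8 of the 13 held the motif, among them the window of Rgs16 and 3 overlapping or nearby windows of Rgs19. Overlapping Rgs19 windows hold the same match, so the 13 windows are not separate, and nothing is read from their share. The related ETS letters CCGGAA were present in 12.0% of all windows and in 1 of the 13, a window of Rgs19. A match describes letters and not a bound site, and no binding was measured in these samples.

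Pericytes express Rgs5, so markers of the other cell types that the captured tissue could hold are given beside it. Of 12 pericyte and smooth muscle markers, 8 were tested, 4 (Acta2, Tagln, Anpep and Ndufa4l2) were higher and 1 (Mcam) was lower. Among all tested genes, 13.6% were higher and 11.3% lower. The summed level of the 12 was 238 to 267 CPM in controls and 230 to 306 CPM in Pea3 TKO, of which Mcam alone was 192 to 209 CPM and 86.2 to 123 CPM. The median log2 fold change of the 8 tested markers was 1.57, against 0.01 over all tested genes, and their part in the Rgs5 difference was not tested. The pericyte receptor Pdgfrb stood at 3.72 ± 0.20 CPM in controls and 2.95 ± 1.77 CPM in Pea3 TKO (adjusted p = 0.69), and the proteoglycan Cspg4 at 5.90 ± 0.26 and 8.04 ± 2.29 CPM (adjusted p = 0.38). Acta2, the smooth muscle actin, rose from 5.51 ± 2.04 to 43.7 ± 12.9 CPM, with 35.9 CPM in mutant replicate 3. Kcnj8 had a log2 fold change of 1.95 ± 1.15 (adjusted p = 0.25). Myh11, which was not tested, had 0 counts in each control and 2, 35 and 26 in Pea3 TKO. The groups overlapped for the untested Abcc9, Cnn1 and Des. The 11 endothelial markers together stood at 28.4 to 35.2 CPM in controls and 19.2 to 31.7 CPM in Pea3 TKO. Of these sums Egfl7 alone was 24.3 to 31.1 CPM in controls and 16.7 to 23.9 CPM in Pea3 TKO. Tie1 and Emcn had 0 counts in all 6 samples. Kdr had 0 counts in each control and 22, 34 and 0 counts in Pea3 TKO. Tek and Pecam1 overlapped between the groups, with up to 70 and 49 counts in a sample. The 5 red blood cell markers together stood at 31.3 to 101 CPM in controls. In Pea3 TKO they stood at 47.4, 55.7 and 221 CPM, highest in replicate 3. The 10 neuron and Schwann cell markers together stood at 1.56 to 5.92 CPM in controls and 1.89 to 2.82 CPM in Pea3 TKO. The part of these cell types in the Rgs5 difference was not tested. In mutant replicate 3, where the mesenchymal sum was lowest of all 6 samples, Rgs4 was at 17.2 CPM and Rgs5 at 7.52 CPM, its highest value. Col1a1, Col1a2, Col3a1, Pdgfra, Twist1 and Postn were each lowest in that sample. Dcn, Lum and Prrx1 were higher there than in control replicates 1 and 2, and Foxc2 was at 64.3 CPM against 61.1 CPM in mutant replicate 1. The part of mesenchymal RNA in Rgs4 and Rgs5 was not tested.

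**Figure D4:**
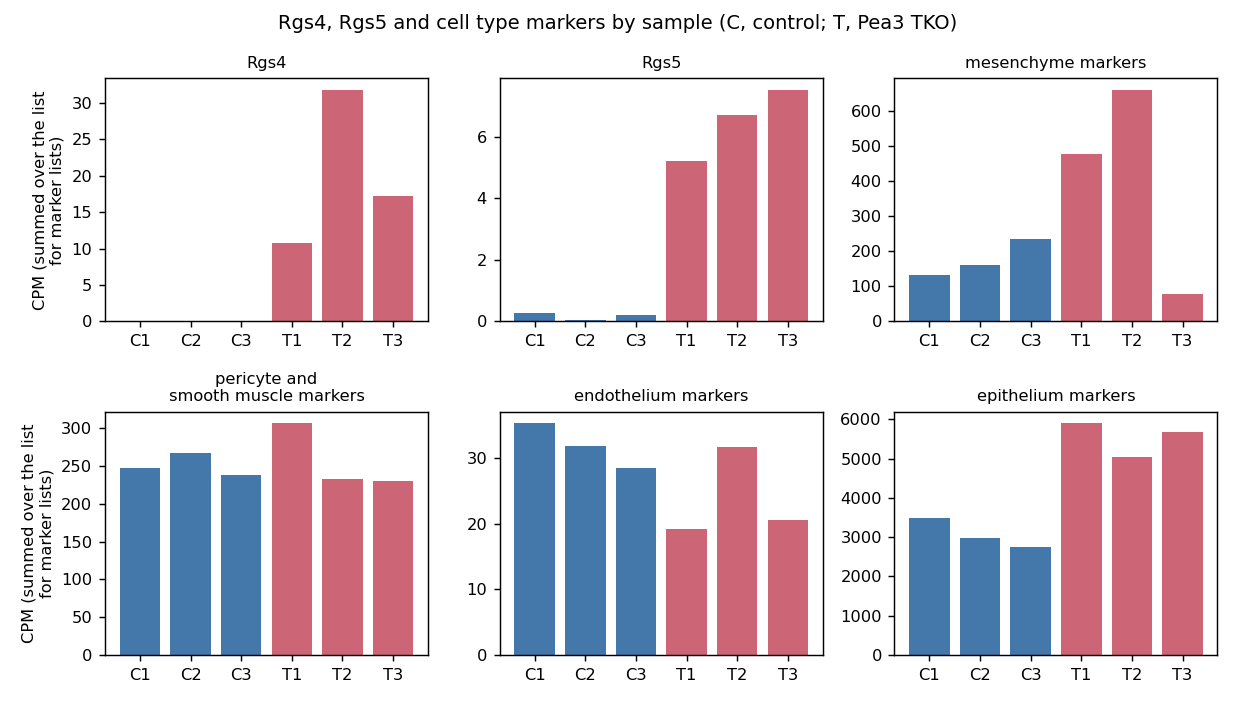
CPM by sample of Rgs4, Rgs5 and the summed markers of 4 cell types, on linear axes from 0 that differ between panels. Bars are single samples of the control (C1 to C3) and Pea3 TKO (T1 to T3) groups. Rgs4 and Rgs5 are high in T1, T2 and T3, whereas the mesenchyme sum is 478 and 660 CPM in T1 and T2. It is 77.0 CPM in T3, of which 64.3 CPM is Foxc2.

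The genes whose pattern over the 6 samples was most like that of Rgs4 were found by the root mean square difference of centred log2(CPM + 1) values, which is 0 for identical patterns. They were the serpin Serpina3g (0.17), the serine protease Tmprss11f (0.40), the VEGF receptor Flt1 (0.45), the matrix protein Tnc (0.46) and the matrix metalloproteinase Mmp9 (0.47). Flt1 went from 0.0376 ± 0.0651 to 20.4 ± 12.1 CPM and Serpina3g from 0.0217 ± 0.0375 to 17.3 ± 7.43 CPM. For Rgs5 the nearest genes were the basal keratin Krt14 (0.12), A330049N07Rik (0.16), the Rag GTPase gene Rragd (0.17), Gm20752 (0.19) and the transcription factor gene Sp5 (0.20). Krt14 stood at 88.2 ± 13.7 CPM in controls and 610 ± 160 CPM in Pea3 TKO. Rgs4 and Rgs5 differed from each other by 0.88 on this measure, and 58 genes were nearer to Rgs4 and 1099 nearer to Rgs5. These distances describe 6 samples in 2 groups and depend on the size of the difference between the groups.

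Of 12 other Rgs symbols in the tables, 3 were tested and none passed the adjusted threshold, nor did any have an unadjusted p under 0.05 or a call by DESeq2. Rgs6 and Rgs11, which belong to the R7 subfamily that pairs with the beta subunit Gnb5, had log2 fold changes of -0.19 ± 0.55 and -0.77 ± 1.09, and Rgs9 of the same subfamily had 0.82 ± 0.71. Rgs11 had 0 counts in mutant replicate 3 and 16 to 39 counts in the other 5 samples. Rgs9bp, an anchor of Rgs9 in retinal cells, had 1, 0 and 0 counts in controls and 30, 2 and 27 in Pea3 TKO. Rgs20 of the RZ subfamily had 2, 6 and 7 counts in controls and 0, 0 and 1 in Pea3 TKO. Rgs1 and Rgs18, known from blood cells, had 0 counts in all 6 samples, and the remaining untested genes had at most 13 counts in any sample.

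RGS proteins act on alpha subunits, and 14 of 16 alpha subunit genes were tested. Of these, 2 were higher and 2 lower, a share close to the 25.0% of all tested genes that were called. Gnaq, the main Gq subunit, fell from 90.3 ± 5.39 to 49.5 ± 4.55 CPM (log2 fold change -0.87 ± 0.13, adjusted p = 0.0018). Gnai2 stood at 544, 729 and 773 CPM in controls and 442, 434 and 475 CPM in Pea3 TKO, without overlap (-0.60 ± 0.14, adjusted p = 0.014). Gnal, an olfactory relative of Gs, was higher (1.36 ± 0.42, adjusted p = 0.041), as was Gnai1 (0.63 ± 0.20, adjusted p = 0.044). Gnas, the Gs subunit gene, had a log2 fold change of 0.25 ± 0.11 (adjusted p = 0.13), and Gnai3 of 0.14 ± 0.11 (adjusted p = 0.39). The call of Gnaq held under each of 15 alternative settings, whereas that of Gnal was lost under 8 and that of Gnai1 under 9. Without control replicate 2 or 3 or mutant replicate 2, 1 alpha subunit gene was called, and without mutant replicate 1 or 3, 2 were. The median log2 fold change of the 14 genes was 0.17, against 0.01 over all tested genes.

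Of 17 beta and gamma subunit genes, 12 were tested, 3 were higher and 1 was lower, with 25.0% called among all tested genes, and the median log2 fold change was 0.09. Gnb1 rose from 653 ± 163 to 999 ± 61.2 CPM (0.61 ± 0.17, adjusted p = 0.025) and Gnb2 from 194 ± 22.8 to 268 ± 20.5 CPM (0.47 ± 0.12, adjusted p = 0.023). The log2 fold change of Gng13 was larger, and ran from 2.07 to 3.41 over the fits without 1 sample. Gng7 fell from 30.3 ± 5.19 to 13.9 ± 5.31 CPM (-1.12 ± 0.28, adjusted p = 0.018). Gng5, a ubiquitous gamma subunit, had a log2 fold change of 0.22 ± 0.16 (adjusted p = 0.35). Gnb5, the partner of the R7 proteins, stood at 29.3, 23.4 and 25.9 CPM in controls and 9.08, 21.6 and 15.0 CPM in Pea3 TKO (-0.78 ± 0.30, adjusted p = 0.083). The 4 calls of this list fell to 1 without control replicate 2, to 2 without mutant replicate 2 and to 0 without control replicate 3.

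The next list held receptors that couple to Gi or Gq and their relatives. Of 41 such genes in the tables, 26 were tested, 6 were higher and 4 were lower in Pea3 TKO, against 25.0% of all tested genes called in either direction, and the median log2 fold change was 0.97. S1pr3, a receptor for sphingosine 1-phosphate, stood at 104, 31.8 and 26.6 CPM in controls and 333, 370 and 502 CPM in Pea3 TKO (2.89 ± 0.46, adjusted p = 0.0022). Cxcr7 (Ackr3), an atypical receptor that is in the list although it signals through arrestin and removes the chemokine Cxcl12, stood at 14.4, 12.7 and 3.38 CPM in controls and 98.7, 108 and 67.1 CPM in Pea3 TKO (3.16 ± 0.43, adjusted p = 0.0010). Cxcr4, the signalling receptor for the same chemokine, went the other way, with 11.3, 41.8 and 33.8 CPM in controls and 3.62, 3.01 and 4.76 CPM in Pea3 TKO (-2.93 ± 0.45, adjusted p = 0.0019). The groups did not overlap for any of these 3 genes. F2rl1, a protease-activated receptor, Ptger3, S1pr5 and P2ry1 were also higher, by 1.83 to 3.01 on the log2 scale. Chrm1, a muscarinic acetylcholine receptor, the endothelin receptor gene Ednrb and Lpar1 were lower, Chrm1 from 39.1 ± 9.63 to 6.89 ± 4.78 CPM (-2.50 ± 0.46, adjusted p = 0.0044). F2r, a thrombin receptor gene, and S1pr2 did not pass the test, with log2 fold changes of -0.26 ± 0.13 (adjusted p = 0.17) and 0.00 ± 0.15 (adjusted p = 0.99). The calls of S1pr3 and F2rl1 held under all 15 alternatives, while those of S1pr5 and P2ry1 were lost under 6 and 9. Without control replicate 3, 6 of the 10 calls were left, and for mutant replicate 3 alone 3 were.

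Among 13 tested genes for other proteins with RGS-like domains, 3 were lower and none was higher, and their median log2 fold change was 0.10. Of all tested genes, 25.0% were called in either direction, 11.3% lower and 13.6% higher. Arhgef1, an exchange factor driven by G12 and G13 alpha subunits, fell from 252 ± 13.5 to 114 ± 11.5 CPM (-1.14 ± 0.12, adjusted p = 2.6e-04), and this call held under all 15 alternatives. The receptor kinases Grk6 and Adrbk2 (Grk3) were lower by 0.46 ± 0.13 and 1.23 ± 0.34 on the log2 scale (adjusted p = 0.030 and 0.026), and without control replicate 3 or mutant replicate 2 neither was called. Grk6 also lost its call without control replicate 1 or mutant replicate 1, and Adrbk2 without mutant replicate 3. Axin1, a scaffold of the Wnt pathway, had a log2 fold change of -0.09 ± 0.12 (adjusted p = 0.61). Of 12 tested other modulators, Gpsm2, which binds Gi alpha subunits at the cell cortex, and Ccdc88a were lower (-0.52 ± 0.14 and -0.49 ± 0.15, adjusted p = 0.027 and 0.038). These 2 of 12, both lower, stand beside 25.0% of all tested genes called in either direction and 11.3% lower, and the median was -0.02. Both calls were lost without control replicate 3 or mutant replicate 2, and 1 of them without control replicate 2, mutant replicate 1 or mutant replicate 3. Neither Pdcl, a phosducin-like chaperone gene, nor Ric8 (Ric8a), an alpha subunit chaperone gene, passed the test (adjusted p = 0.21 and 0.58).

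Of 10 tested effector genes, 1 was higher and 1 lower, a share under the 25.0% called among all tested genes, and the median log2 fold change was 0.06. Plcb4, a phospholipase C driven by Gq, fell from 45.8 ± 7.39 to 17.6 ± 4.24 CPM (-1.38 ± 0.22, adjusted p = 0.0022). The adenylyl cyclase gene Adcy2 rose from 5.65 ± 4.30 to 19.8 ± 3.17 CPM (1.80 ± 0.51, adjusted p = 0.028), a call that was lost without control replicate 3, mutant replicate 1 or mutant replicate 2. Plcb3 and Adcy3, of the same 2 enzyme families, had log2 fold changes of 0.22 ± 0.12 and -0.21 ± 0.19 (adjusted p = 0.21 and 0.47).

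A further list held genes of the arginine N-degron pathway, some of which act on a cysteine at position 2. All 9 genes of this pathway reported here were tested, and none passed the adjusted threshold, against 25.0% of all tested genes. Of the 9, 1 (Ate1) had an unadjusted p under 0.05 and was called by DESeq2. The groups did not overlap for 4 of the 9 (2 higher and 2 lower), against 43.9% of all tested genes. Ado, the dioxygenase that oxidises the cysteine, stood at 103, 110 and 110 CPM in controls and 69.2, 95.4 and 102 CPM in Pea3 TKO (-0.28 ± 0.15, adjusted p = 0.22). Ate1, the arginyl transferase, stood at 33.6, 43.3 and 41.9 CPM in controls and 49.3, 67.5 and 51.9 CPM in Pea3 TKO (0.51 ± 0.17, adjusted p = 0.060). Metap1 and Metap2, the enzymes that remove the first methionine, had log2 fold changes of 0.16 ± 0.14 and -0.02 ± 0.13 (adjusted p = 0.46 and 0.93).

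**Figure D5:**
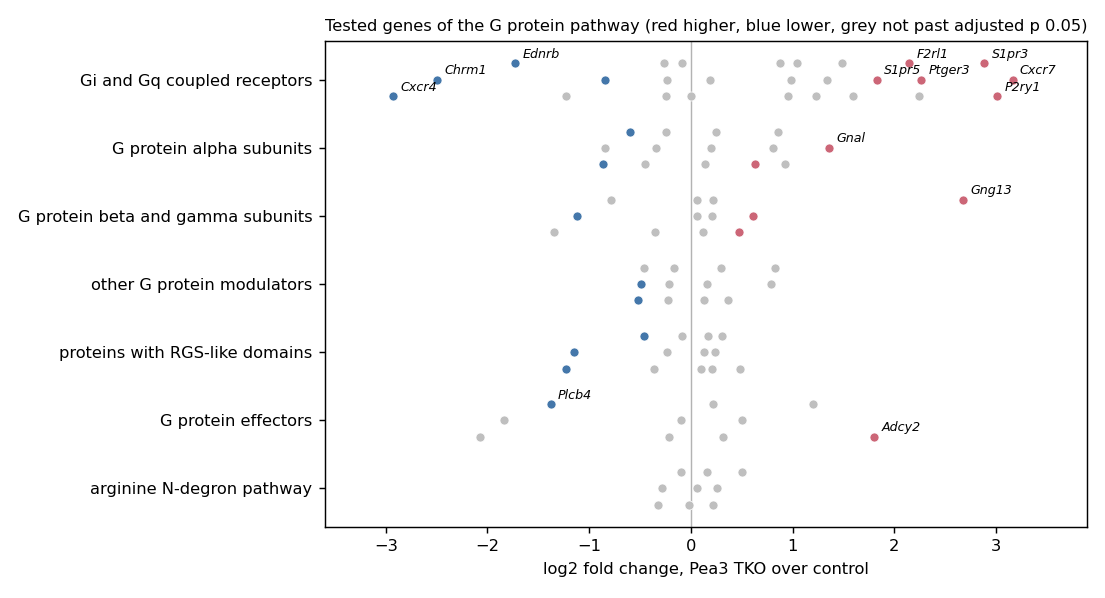
Log2 fold change of Pea3 TKO over control for every tested gene of 7 lists around G protein signalling, 1 point per gene, spread vertically for legibility. Red points were higher and blue points lower at an adjusted p under 0.05, and grey points did not pass. The receptors span -2.93 (Cxcr4) to 3.16 (Cxcr7), and no N-degron gene is coloured.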

How the data were processed

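The labels give 3 control (Le-Cre) and 3 Pea3 TKO samples of E14.5 lacrimal gland epithelium. The authors deposited 1 table per sample with raw read counts per gene symbol, not normalized. Per the labels and the submitters' processing notes, RNA preparation is given both as Nugen's Ovation RNA-seq System V2 and as poly-A selection with a TruSeq kit, without saying how these combine, and the notes name bcl2fastq 2.17, STAR 2.5.2b, featureCounts 1.5.0-p3, DESeq and the build mm10. The annotation and the strand setting are not given in the sources used here.

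Genes were kept by filterByExpr with its defaults, normalized by TMM and compared by the quasi-likelihood test of edgeR 4.0.16 (R 4.3.3), with genotype as its single term, and p-values were adjusted by Benjamini-Hochberg over all 13087 tested genes at a threshold of 0.05. CPM values use the library sizes of the kept genes multiplied by the TMM factors, which ran from 0.984 to 1.03. The totals of 14194775 to 17860140 counts are those before filter and scaling. The scripts were tested on simulated data. With 3 against 3 samples, an exact permutation test of a single value cannot go below 0.10, so none was used. 1 gene of the N-degron list is not reported here. The members, the gene lists and the alternatives were chosen with earlier results of these data known. All members were named, as were the targeted genes and other Rgs symbols. From each pathway list, up to 3 called genes with the smallest p and the 3 with the highest mean CPM were named, and for Rgs4 and Rgs5 the 5 nearest genes. Further called genes of the lists, Rgs9bp, Gnb5, Uap1, Hsd17b7, Ddr2, Nuf2, Ate1 and Ado were named after their values were seen. Alternatives were RLE size factors, library totals only, no filter, at least 10 counts in 3 samples, DESeq2 1.42.0, limma-voom 3.58.1, a replicate block, Y-linked expression as a covariate and leaving out each sample. Mutant replicate 3 alone against the controls was added after seeing the data. Positions and coding starts are from GENCODE M21, promoter windows from RefSeq.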

Additional observations from a re-analysis of the deposited data

How the results depend on the processing

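Since the members were chosen on this contrast, their calls under 15 alternatives are a description and show nothing about stability. The count of members past the threshold was 2, without Rgs12, with Y-linked expression as a covariate and for mutant replicate 3 alone, and 3 otherwise. The log2 fold change of Rgs5 ran from 4.71 to 5.58 and that of Rgs12 from 0.45 to 0.58 over the fits without 1 sample. That of Rgs16 was 0.24 with the Y-linked covariate and 0.88 without Pea3 TKO replicate 1, and that of Rgs14 changed sign, at -0.26 with the covariate. Of 29 other called genes named for the pathway, the targets and Uap1, 8 stayed past the threshold under all 15 alternatives and 0 changed sign. Deviations of samples with the same replicate number correlated at 0.144, -0.0640 and 0.0454, and those with unlike numbers at -0.133 to 0.119. Correlations this small cannot decide whether samples were paired. With a replicate block 3191 genes were called, 2 alpha subunits and 1 N-degron gene (Ate1). The number of genes called was 801 with the Y-linked covariate, 597 for mutant replicate 3 alone, and 1948 (without control replicate 3) to 3344 (without control replicate 1) without 1 sample, against 3268. With the Y-linked covariate 1 RGS-like gene, 1 alpha subunit, 0 beta or gamma subunits, 0 other modulators, 0 effectors and 4 receptors were called. For mutant replicate 3 alone these were 1, 1, 0, 0, 1 and 3. Without 1 sample, calls ran from 1 to 3 RGS-like genes, 1 to 4 alpha subunits, 0 to 4 beta or gamma subunits, 0 to 2 other modulators, 1 to 3 effectors, 6 to 10 receptors, 0 N-degron genes and 0 to 1 other Rgs genes (Rgs9bp without control replicate 1 or Pea3 TKO replicate 2). DESeq2 called 3930 genes, 4 effectors and 1 N-degron gene (Ate1). Library totals alone called the same gene, and without the filter 1 other Rgs gene (Rgs9bp) was called. The cause of these shifts was not tested. Rgs10, Rgs14, Rgs17 and Rgs20 had at most 27 counts in any sample, so depth limits what can be said of them.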
